A study of Mus musculus with 23 samples.

Results

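OT-II cells, CD4 T cells whose transgenic receptor recognises a peptide of ovalbumin (OVA), were compared after A8B1-OVA and after a higher dose of free OVA. The members were chosen by treatment label: 3 libraries of the A8B1-OVA group (replicates 1, 2 and 3) and 2 of the higher-dose OVA group (replicates 2 and 3), which makes 5 of the 23 libraries of the series. OT-I cells, CD8 T cells with a receptor for another OVA peptide, and OT-II cells were both transferred into C57BL/6 mice. Treatment followed 1 day after transfer and consisted of 1 ug A8B1-OVA, free OVA in the molar equivalent amount, free OVA at a higher dose, or saline. At 5 days after transfer the T cells were sorted by flow cytometry from spleen and lymph nodes combined. RNA of 3 mice was pooled per library and copied to cDNA by the SmartSeq protocol, which amplifies full-length polyadenylated transcripts. The sample titles carry the number 5 for the higher dose without a unit, so the 2 treatments differ both in the form of the antigen and in its amount, and these cannot be told apart. The labels do not explain A8B1; the series title speaks of antigen targeted to erythrocytes and of T cell anergy. OT-I and OT-II cells were given together in all groups, as the treatment protocol words it. The labels give the OT-II libraries the cell type "OT-i" and the source CD4 T cells; the titles say OT2. Nothing in the labels tells whether libraries were separate beyond the pools of mice, so p-values measure the spread between these libraries, which may be technical in part.

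When a T cell receptor binds its peptide on a cell that presents it, calcium opens the way for NFAT and the MAP kinase pathway for AP-1 and for the EGR factors. With costimulation these drive cytokine genes and division. Without it, NFAT and the EGR factors on their own are known to turn on genes that damp later responses, a state called anergy. Persistent signalling is known to hold inhibitory receptors such as PD-1 on the surface and to raise the transcription factor TOX. CD4 cells that have met antigen also branch into Th1 cells, which depend on T-bet, and follicular helper cells, which depend on BCL6 and help B cells.

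Library totals were 64846003, 57485888 and 60096031 counts with A8B1-OVA and 62050453 and 52323657 with higher-dose OVA, and 15419 to 15917 genes had a count. Levels below are CPM, a gene's share of the TMM-scaled library total (edgeR's correction for composition). A count of 0 allows 0.0463 to 0.0573 CPM in these libraries (3 counts of the total, counting error only). A principal component fit of the 11 OT-II libraries put 21.4% of the variance on its first axis, where A8B1-OVA lay at -60.4, -62.3 and -38.5, higher-dose OVA at 3 and -3.4, and saline between 22.2 and 29. A8B1-OVA replicate 3 thus lay nearest to the other treatments. Its correlation of log2 CPM was 0.9739 and 0.9736 with A8B1-OVA replicates 1 and 2. With higher-dose replicates 2 and 3 it was 0.9696 and 0.9752, so 1 higher-dose library was closer to it than its own group. The levels of Cd4 and Cd8a matched the CD4 label. Cd4, the co-receptor gene, was at 584, 610.2 and 578 CPM with A8B1-OVA and 720.4 and 661 with higher-dose OVA, whereas Cd8a was at 1.17 to 2.24 CPM in all 5 libraries. Cd8b1, the gene of the other CD8 chain, was not absent, at 24.9, 30.7 and 24.9 CPM against 49.2 and 45.4. In the OT-I libraries of these treatments Cd8b1 was at 1594 to 2345 CPM.

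The promoters of 5 called genes, picked by hand, are printed here: 4 that were higher after A8B1-OVA (the chemokine gene Xcl1, the costimulatory receptor gene Tnfrsf9, the PD-1 gene Pdcd1 and the T-box factor gene Eomes) and Dntt, which was lower. Each run is the 250 bases before the RefSeq transcription start on build GRCm38.p6, 5′ to 3′ on the gene's own strand. Capitals mark the NFAT core GGAAA and the T-box core GGTGTGA, each on either strand, so that a core on the other strand appears as its reverse complement. The 4 elements were searched separately and matches may overlap one another. Coordinates are chr1:164935523-164935772 (minus strand) for Xcl1, chr4:150919905-150920154 (plus strand) for Tnfrsf9 (the first of 2 starts), chr1:94052554-94052803 (minus strand) for Pdcd1, chr9:118477939-118478188 (plus strand) for Eomes and chr19:41029025-41029274 (plus strand) for Dntt.
Xcl1: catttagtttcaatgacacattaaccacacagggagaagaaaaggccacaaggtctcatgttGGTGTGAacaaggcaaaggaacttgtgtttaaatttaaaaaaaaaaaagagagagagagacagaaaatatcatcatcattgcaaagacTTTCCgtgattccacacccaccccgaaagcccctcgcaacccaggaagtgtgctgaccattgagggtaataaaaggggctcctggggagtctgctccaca
Tnfrsf9: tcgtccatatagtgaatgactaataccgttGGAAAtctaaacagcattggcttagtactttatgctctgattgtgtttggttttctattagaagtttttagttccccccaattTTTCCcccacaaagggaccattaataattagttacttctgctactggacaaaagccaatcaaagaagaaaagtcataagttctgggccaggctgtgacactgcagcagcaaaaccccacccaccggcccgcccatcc
Pdcd1: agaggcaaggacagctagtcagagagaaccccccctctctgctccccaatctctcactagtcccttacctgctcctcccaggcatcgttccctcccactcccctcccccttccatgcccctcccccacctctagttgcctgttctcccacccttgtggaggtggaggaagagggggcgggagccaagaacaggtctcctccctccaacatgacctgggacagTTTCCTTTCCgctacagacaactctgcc
Eomes: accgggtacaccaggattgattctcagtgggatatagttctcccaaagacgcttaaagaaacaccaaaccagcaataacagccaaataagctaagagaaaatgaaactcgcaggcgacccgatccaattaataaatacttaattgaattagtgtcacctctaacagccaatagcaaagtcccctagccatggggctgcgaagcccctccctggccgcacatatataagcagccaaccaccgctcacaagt
Dntt: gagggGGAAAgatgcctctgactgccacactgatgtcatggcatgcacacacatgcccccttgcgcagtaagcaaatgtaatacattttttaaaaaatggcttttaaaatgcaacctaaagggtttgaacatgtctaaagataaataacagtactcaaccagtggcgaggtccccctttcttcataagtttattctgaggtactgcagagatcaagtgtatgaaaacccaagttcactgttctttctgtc
The Xcl1 window held 1 NFAT core and 1 T-box core, those of Tnfrsf9 and Pdcd1 2 NFAT cores each, that of Dntt 1 NFAT core and that of Eomes neither. Over all RefSeq promoters of this length on both strands, 55.6% of 32851 held GGAAA, 6.75% the AP-1 element (TGA, any base, TCA), 4.7% the EGR element GCGNGGGCG and 3.33% the T-box core. Of the 134 promoters of genes called higher after A8B1-OVA, 50.7% held the NFAT core, 4.48% the AP-1 element, 9.7% the EGR element and 2.99% the T-box core. The promoters of all tested genes, 14469 in number, held these 4 in 54.2%, 4.83%, 7.99% and 2.97%. The shares for genes called lower, over 78 promoters, were 60.3%, 2.56%, 10.3% and 5.13%. No test was made of these shares. Matches of letters describe the sequence and not binding, and RefSeq matched 101 of the genes called higher and 60 of those called lower.

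After A8B1-OVA, OT-II cells had higher levels of some activation, inhibitory receptor, anergy-associated and DNA replication genes than after higher-dose OVA, and lower levels of some genes of resting and recirculating T cells. Of 14757 genes tested, 198 were called (1.34%), 121 higher after A8B1-OVA (0.82%) and 77 lower (0.522%), by edgeR's quasi-likelihood test at a Benjamini-Hochberg adjusted p under 0.05. The genes called higher moved further: 57 of them and 8 of those called lower differed by more than 2-fold, and the called log2 fold changes ran from -1.52 to 5.78. The median over all tested genes was 0.003 on the log2 scale. At an unadjusted p under 0.05 there were 1890 of the 14757 genes, both directions together. DESeq2 called 706 of the 11604 genes to which it gave an adjusted p. List counts given below at these 2 thresholds stand beside these totals. The 3 A8B1-OVA libraries did not overlap the 2 higher-dose libraries in any of the 198 called genes; this held for 28.4% of all tested genes. The higher-dose group rests on 2 libraries, and without replicate 2 of it 6 genes were called, without replicate 3 22, and without A8B1-OVA replicates 1, 2 and 3 41, 43 and 210. Of 69 called genes named here (all but Ikzf3), 5, 16, 25, 27 and 55 kept their call in these fits, and all 69 kept their direction. Without higher-dose replicate 2 these were Tnfrsf9, Lad1, Dntt, Shmt1 and Irf2bp2; without replicate 3 they were Xcl1, Trpm1, Tnfrsf9, Lad1, Dntt, Prdm1, Ly6c1, Slc16a5, Pdlim4, Klf2, Nab2, Itgb7, Sit1, Ncl, Ephx1 and Acot7. Each of the other named calls was lost without either higher-dose library. Tnfrsf9 and Lad1 were called in every one of the 14 alternative fits.

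**Figure D1:**
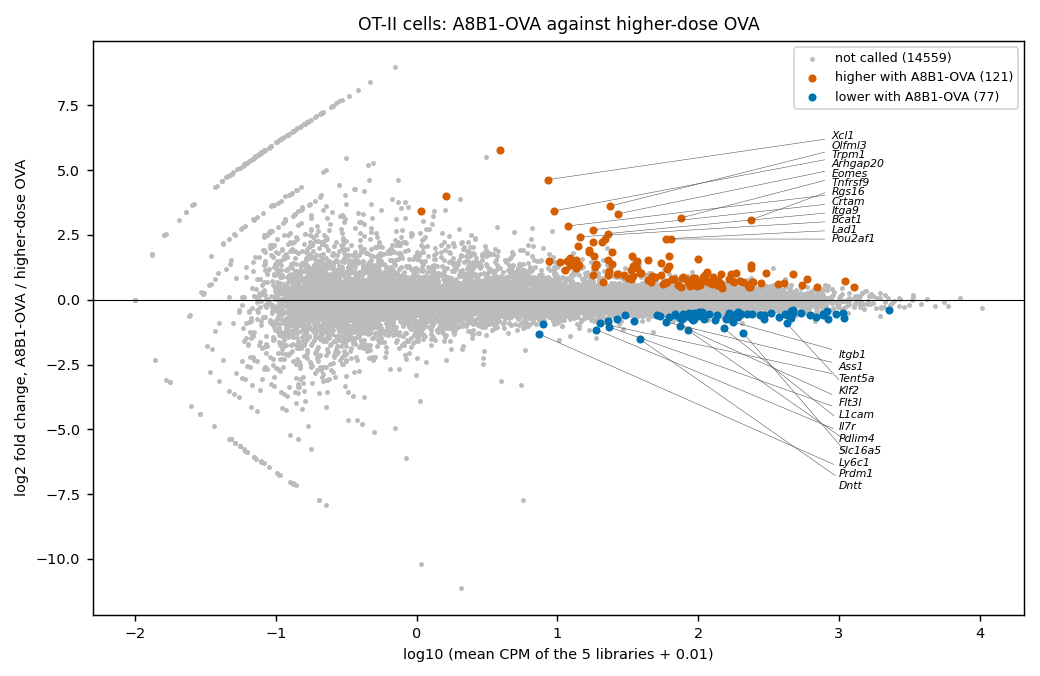
Log2 fold change of A8B1-OVA over higher-dose OVA (vertical axis) against log10 of the mean CPM of the 5 libraries plus 0.01 (horizontal axis) for the tested genes; orange points are the 121 genes called higher, blue points the 77 called lower, grey points the others. The labelled genes are the 12 highest and 12 lowest named by size, from Xcl1 at 4.63 to Dntt at -1.52; the genes called higher reach farther from 0 than those called lower, and the slanted lines of grey points are genes with few counts.

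Tnfrsf9 encodes CD137, a costimulatory receptor that T cells put on their surface after antigen contact. It was at 349.5, 387 and 362 CPM with A8B1-OVA and at 43 and 43.3 with higher-dose OVA. Every A8B1-OVA library lay far above both others (log2 fold change 3.08 ± 0.17 SE, edgeR adjusted p = 5.88e-06), and the saline mean was 28.7 ± 4.66 CPM (SD, n = 3). The gene, ENSMUSG00000028965, spans 150914562 to 150946102 of chromosome 4 in GRCm38 as GENCODE M21 gives it. It was the only one of the 18 costimulatory receptor genes tested to be called. The others included Icos, a receptor that helps follicular helper cells form (0.31 ± 0.12, edgeR adjusted p = 0.31), and Tnfrsf4, which encodes OX40 (0.27 ± 0.29, adjusted p = 0.793).

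Xcl1 encodes lymphotactin, a chemokine that draws cross-presenting dendritic cells. Its levels were 14, 14.5 and 13 CPM with A8B1-OVA, 0.363 and 0.754 with higher-dose OVA, and saline libraries had 0.739 to 1.1. The difference was the largest among genes named by size, at 4.63 ± 0.55 SE on the log2 scale (edgeR adjusted p = 0.00318; 4.20 and adjusted p = 0.0851 without higher-dose replicate 2). Eomes encodes eomesodermin, a T-box factor known for memory and exhausted CD8 cells and for some CD4 cells with regulatory or cytotoxic features. It was at 111, 146 and 93.6 CPM against 12.9 and 13.2, with saline at 2.56 to 5.66, so that the 3 groups stood in separate ranges. Its log2 fold change was 3.16 ± 0.45 SE (edgeR adjusted p = 0.00852; 3.15 and 3.18, adjusted p = 0.191 and 0.108, without higher-dose replicate 2 or 3). Crtam, a cell adhesion receptor of activated and cytotoxic-type T cells, was at 30.1, 30.6 and 19.8 CPM against 4.57 and 3.69 (2.70 ± 0.58). The call of Crtam was lost without any 1 of the 5 libraries.

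Rgs16, which limits signalling from chemokine receptors, was at 18.8, 22.5 and 12.9 CPM against 1.88 and 3.15 (2.85 ± 0.41 SE, edgeR adjusted p = 0.00962). Spry1, a feedback inhibitor of MAP kinase signalling, was at 37, 34.3 and 24.6 CPM against 4.2 and 8.46 (2.34 ± 0.45, adjusted p = 0.0313). Pou2af1, a transcriptional coactivator best known in B cells and also found in follicular helper cells, was at 74.6, 118.8 and 66.5 CPM against 18.9 and 15.2 (2.35 ± 0.43, adjusted p = 0.0251). In each of these the lowest A8B1-OVA value was replicate 3 and the groups did not overlap, as in every called gene. Bcat1, an enzyme of branched-chain amino acid breakdown, had 19.7, 26.4 and 18.3 CPM against 3.76 and 4.2 (2.43 ± 0.42, adjusted p = 0.021). Lad1, whose product is a filament-binding protein, had 97, 98.8 and 88.6 CPM against 19.6 and 17.3 (2.36 ± 0.18, adjusted p = 0.000143). Both were also above their saline means of 1.88 and 8.44 CPM in every one of the 5 libraries. The remaining genes of the 12 highest were Olfml3 (3.61 ± 0.71), Trpm1, an ion channel gene (3.43 ± 0.37), Arhgap20 (3.32 ± 0.56), and the integrin gene Itga9 (2.55 ± 0.51). Olfml3 varied most among them, at 34.3, 57.1 and 20.9 CPM against 4.29 and 1.81. The summed level of B cell markers, a cell type that also expresses Pou2af1, was 408.5, 449.6 and 209.5 CPM with A8B1-OVA and 412.8 and 406.3 with higher-dose OVA, in overlapping ranges; its part in the Pou2af1 difference was not tested.

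**Figure D2:**
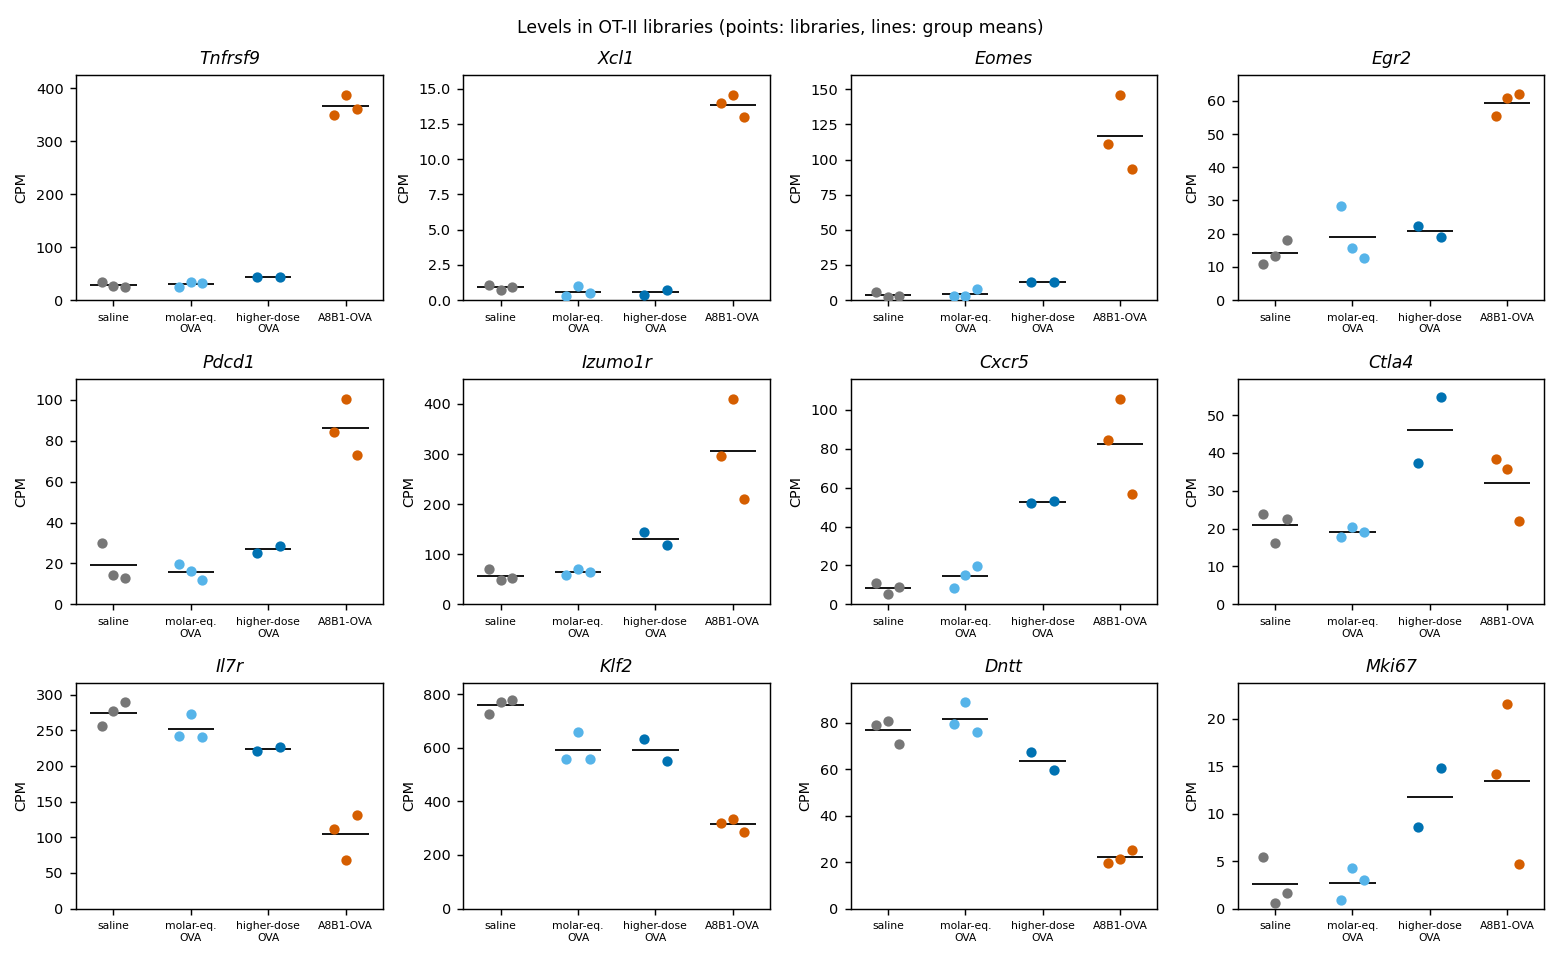
Levels of 12 genes in CPM (vertical axes, starting at 0) in the OT-II libraries of the 4 treatments; points are libraries and lines group means. Tnfrsf9, Xcl1 and Eomes were highest with A8B1-OVA, Cxcr5 was raised with both A8B1-OVA and higher-dose OVA, Il7r, Klf2 and Dntt were lowest with A8B1-OVA, and Ctla4 and Mki67 overlapped between the 2 treatments compared.

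Some genes of early receptor signalling were higher. Of 32 tested, 6 were called higher after A8B1-OVA and none lower, with a median log2 fold change of 0.35 against 0.003 over all tested genes (DESeq2 called 13 higher and 0 lower). Egr2, an NFAT target needed for anergy induction, was at 55.3, 60.7 and 62.1 CPM with A8B1-OVA and 22.4 and 19.1 with higher-dose OVA. The groups were clearly apart (1.52 ± 0.30 SE, edgeR adjusted p = 0.0333), and saline libraries had 11 to 18.1. The call was lost without any 1 of the 5 libraries, with values of 1.41 to 1.64. Egr3, its close relative, was at 16.8, 29.9 and 29.3 CPM against 6.71 and 8.82 (1.71 ± 0.30, adjusted p = 0.0214). Nfatc1, the inducible NFAT gene, was at 662, 654 and 566 CPM against 416.5 and 434 (0.56 ± 0.10, adjusted p = 0.021), and Myc, the growth regulator, at 139.7, 177 and 152 against 101 and 109 (0.57 ± 0.12, adjusted p = 0.0474).

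Other genes of the same list did not pass. Nr4a1, which encodes NUR77 and responds to receptor signals within hours, was at 505, 457 and 531 CPM with A8B1-OVA and at 391 and 181 with higher-dose OVA, with no overlap but a wide gap between the 2 higher-dose libraries (0.80 ± 0.37 SE, edgeR adjusted p = 0.401). Nr4a3, its relative, did not overlap either and had 0.74 ± 0.36 (adjusted p = 0.42). Cd69, an early activation antigen that also retains cells in tissue, overlapped between the groups, at 276, 192 and 270.1 CPM against 226 and 196. So did Cd44, a marker of antigen experience (71.8, 98.3 and 63.9 against 98 and 94.3), and Il2ra, the high-affinity IL-2 receptor chain (29.1, 23.1 and 37.8 against 23.8 and 31.8). Irf4, a factor graded by receptor signal strength, was at 29.1, 31.2 and 19.7 CPM against 24.6 and 22.7 (0.17 ± 0.22). Without 1 library, the list gave 1 to 4 genes higher, and without A8B1-OVA replicate 1 also 1 lower.

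Of the inhibitory receptors and their ligands, 3 of 19 tested were called higher and none lower (median 0.00; 6 higher and 2 lower at an unadjusted p under 0.05). Pdcd1, which encodes PD-1, was at 84.3, 101 and 73 CPM after A8B1-OVA and at 25.3 and 28.4 after higher-dose OVA. Saline libraries had 30, 14.5 and 12.9 CPM, the first being replicate 1, a library with raised markers of other cells. The higher-dose libraries lay below that library and above the other saline libraries. Higher-dose OVA did not pass against saline (0.49 ± 0.32 SE, edgeR adjusted p = 0.933). The A8B1-OVA libraries all lay above the higher-dose and saline libraries (1.68 ± 0.33 against higher-dose OVA, adjusted p = 0.0333). Cd200, the ligand of a myeloid inhibitory receptor, was at 140.3, 184 and 82.7 CPM against 40.7 and 49.7 (1.59 ± 0.33, adjusted p = 0.0393). Cd160, a receptor for the herpesvirus entry mediator, was at 16.7, 21.6 and 16.6 CPM against 6 and 6.63 (1.54 ± 0.26, adjusted p = 0.021). None of the 3 was called without A8B1-OVA replicate 1 or 2 or without either higher-dose library; for Pdcd1 the values then were 1.55 to 1.76 and the adjusted p 0.086 to 0.304.

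The other inhibitory receptors of the panel gave no call. Lag3, an MHC class II-binding receptor, was low throughout, at 2.2, 3.91 and 2.12 CPM against 1.42 and 1.3 (1.01 ± 0.46 SE, edgeR adjusted p = 0.376). Ctla4, whose product takes B7 ligands away from CD28, had a negative fold change, at 38.3, 35.7 and 22.1 CPM against 37.5 and 54.8, with overlapping groups (-0.53 ± 0.24, adjusted p = 0.389). Tigit, a receptor for nectin-type ligands, was at 2.11, 2.98 and 1.37 CPM against 4.75 and 3.26 (-0.90 ± 0.42, adjusted p = 0.409). Havcr2, which encodes TIM-3, stayed under 1 CPM in all 5 libraries. The list was split: 10 of its 19 members had a fold change above 0.

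Anergy-associated genes gave 6 higher and 1 lower of 29 tested (median 0.21). Besides Egr2, Egr3 and Nfatc1 these were Izumo1r, Ikzf2 and Nab2. Izumo1r, which encodes folate receptor 4, a surface marker used to sort anergic CD4 cells, was at 296, 411 and 209.9 CPM with A8B1-OVA and 144 and 119 with higher-dose OVA (1.22 ± 0.24 SE, edgeR adjusted p = 0.0342). Saline libraries had 48.5 to 70.9, so the higher-dose libraries lay between the other groups. Ikzf2, which encodes Helios, was at 42.1, 28.5 and 31.6 CPM against 7.11 and 11.9 (1.85 ± 0.30, adjusted p = 0.0201). Nab2, a corepressor that binds EGR proteins, was at 186, 201 and 208 CPM against 101 and 124.6 (0.81 ± 0.12, adjusted p = 0.00852).

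The member of the anergy list that was lower was Nrp1, a semaphorin co-receptor, at 18.3, 15.4 and 18.7 CPM against 32.6 and 28.5 (-0.81 ± 0.18 SE, edgeR adjusted p = 0.0497). Nt5e encodes CD73, which is used together with folate receptor 4 to mark anergic cells. It was at 8.34, 8.45 and 9.95 CPM against 16.9 and 11.6 (-0.68 ± 0.27, adjusted p = 0.307), so of this pair of markers Izumo1r was called and Nt5e was not. Cblb, an E3 ligase gene needed for anergy, overlapped, at 187, 151 and 193 CPM against 161 and 198 (-0.02 ± 0.15, adjusted p = 0.984). Without 1 library the list gave 0 to 5 higher; it gave 0 without higher-dose replicate 2 and 1 without replicate 3.

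**Figure D3:**
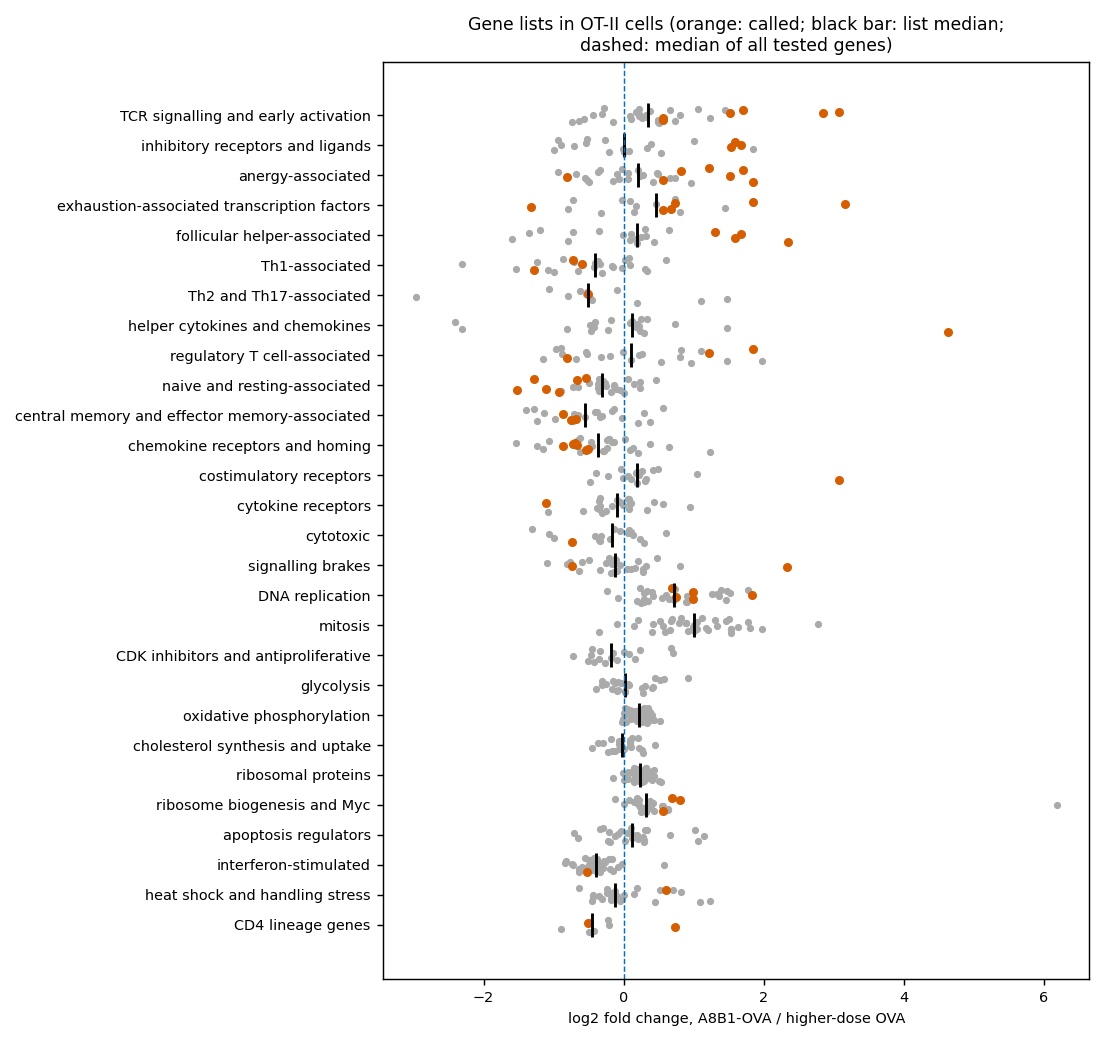
Log2 fold changes of A8B1-OVA over higher-dose OVA (horizontal axis) for the tested members of 28 gene lists (vertical axis); orange points are called genes, grey points the others, black bars list medians and the dashed line the median of all tested genes. The medians of the DNA replication and mitosis lists lie at 0.72 and 1.00, those of the interferon-stimulated and Th1-associated lists at -0.40.

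Of 17 transcription factors associated with exhaustion, 5 were higher and 1 lower (median 0.47). Tox, which encodes the factor that maintains exhausted cells, was at 276, 209.8 and 225 CPM against 141 and 143 (0.74 ± 0.12 SE, edgeR adjusted p = 0.0201), with saline at 110.4 to 112. The higher-dose value thus stood close above saline and all A8B1-OVA libraries stood above both. Eomes, Ikzf2, Nfatc1 and Ikzf3 were the other genes called higher; Ikzf3, which encodes Aiolos and was added here after its value was seen, had 0.69. The member that was lower was Prdm1, which encodes BLIMP1, a driver of effector and exhausted states. It was at 5.15, 4.87 and 3.87 CPM against 15.2 and 7.99 (-1.32 ± 0.25, adjusted p = 0.028), and the higher-dose libraries differed from each other. Tox2 (-0.72 ± 0.49), Maf (-0.80 ± 0.33) and Zbtb32 (-0.32 ± 0.51), other factors of the list, did not pass. Without 1 library 0 to 4 of the list were higher, with 0 when either higher-dose library was left out.

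Follicular helper-associated genes gave 4 higher and none lower of 20 tested (median 0.19): Bcl6, Pou2af1, Pdcd1 and Cd200, of which the last 2 are also in the list of inhibitory receptors. Bcl6 was at 38.2, 46.8 and 50.4 CPM with A8B1-OVA and 15.1 and 21.5 with higher-dose OVA (1.30 ± 0.22 SE, edgeR adjusted p = 0.021), and saline libraries had 13.5 to 20. Cxcr5, the receptor that brings these cells to B cell follicles, behaved differently. It was at 84.6, 105.5 and 56.7 CPM with A8B1-OVA, 51.9 and 53.1 with higher-dose OVA, and saline libraries had 5.47 to 11.1. Against saline it was called for both treatments, at 3.27 and 2.62 on the log2 scale (adjusted p = 0.000229 and 0.0329), and between them it did not pass (0.65 ± 0.35, adjusted p = 0.478). Il21, a cytokine of follicular helper cells, was at 0.577 to 1.72 CPM and overlapped. With any 1 library left out, 0 to 4 of the list were higher.

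Of 25 Th1-associated genes tested none was called higher after A8B1-OVA and 3 were lower, with a median of -0.40 (8 lower and 0 higher at an unadjusted p under 0.05; DESeq2 called 0 higher and 5 lower). Selplg, which encodes the selectin ligand PSGL-1, was at 663, 717 and 597 CPM against 1227 and 956 (-0.73 ± 0.14 SE, edgeR adjusted p = 0.0323). Runx3, a partner of T-bet, was at 44.1, 40.2 and 43.1 CPM against 61.9 and 66.5 (-0.60 ± 0.11, adjusted p = 0.0272). The third was Ly6c1, whose level is uncertain because 46.76% of its 31-base words also occur in Ly6c2 (-1.28 ± 0.14, adjusted p = 0.00247). Tbx21, which encodes T-bet, was at 6.65, 5.82 and 4.94 CPM against 17.3 and 16.4, with no overlap between groups, but it did not pass (-1.54 ± 0.43, adjusted p = 0.118). Of 14 alternative fits, 2 called Tbx21 lower: DESeq2 and the fit of only the 2 groups compared. Cxcr3, a T-bet target that guides cells to inflamed tissue, was at 31.5, 45.8 and 15.2 CPM against 77.9 and 67.3 (-1.24 ± 0.39, adjusted p = 0.174). For both, the saline range (7.41 to 9.98 and 21.3 to 32.6 CPM) lay below the higher-dose libraries. Leaving out 1 library gave 0 to 3 lower.

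Few cytokine and regulatory T cell genes were called. Of 21 helper cytokines and chemokines tested, Xcl1 alone was called. Il2, the T cell growth factor, was at 1.2, 0.876 and 0.836 CPM against 1.67 and 1.73 (-0.81 ± 0.53 SE, edgeR adjusted p = 0.584) and Ifng, the Th1 cytokine, at 0.53 to 2.06 CPM in all 5 libraries; both share over 10% of their sequence with another gene and are uncertain. Among Th2 and Th17 genes, Gata3 alone of 13 was called, at 87, 76.3 and 75.8 CPM against 111 and 114 (-0.50 ± 0.10, adjusted p = 0.0333). Regulatory T cell-associated genes gave 2 higher (Izumo1r and Ikzf2) and 1 lower (Nrp1) of 23. Foxp3, the defining factor of regulatory T cells, was at 9.76, 9.24 and 11.7 CPM against 21.2 and 18.9 (-0.97 ± 0.34, adjusted p = 0.242), with 16.31% of its sequence shared with a neighbouring transcript.

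Genes of naive and resting T cells were lower or did not pass: of 30 tested 6 were lower and none higher, with a median of -0.31 (17 lower and 1 higher at an unadjusted p under 0.05; DESeq2 called 10 lower and 0 higher). Dntt, which encodes terminal deoxynucleotidyl transferase and marks T cells that left the thymus recently, was at 19.7, 21.5 and 25 CPM with A8B1-OVA and 67.2 and 59.7 with higher-dose OVA. The A8B1-OVA libraries were all below the higher-dose libraries and below saline at 70.9 to 80.7 (-1.52 ± 0.13 SE, edgeR adjusted p = 0.000257). Il7r, the IL-7 receptor chain on which resting T cells depend, was at 112, 68.3 and 132 CPM against 221 and 227 (-1.11 ± 0.20, adjusted p = 0.0223). It did not pass when A8B1-OVA replicate 1 was left out (-1.16, adjusted p = 0.0732), nor without higher-dose replicate 2 or 3 (-1.12 and -1.09, adjusted p = 0.207 and 0.144).

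Klf2 encodes a factor that keeps T cells quiescent and recirculating. It was at 321, 336 and 286.5 CPM after A8B1-OVA against 635 and 551 (-0.92 ± 0.11 SE, edgeR adjusted p = 0.00318; -0.80 and adjusted p = 0.0851 without higher-dose replicate 2). S1pr1, a KLF2 target that lets cells leave lymph nodes, was at 547, 494 and 620.0 CPM against 941 and 816 (-0.67 ± 0.12, adjusted p = 0.021). Ccr7, the receptor for entry into lymph nodes, was at 838, 792 and 802 CPM against 1262 and 1091 (-0.54 ± 0.12, adjusted p = 0.044). In each of these 3 genes the groups did not overlap, as in every called gene. Tcf7, which encodes TCF1, was at 2677 to 2763 CPM against 2749 and 2640.0 (0.01 ± 0.08, adjusted p = 0.978). Lef1, its relative, had -0.18 ± 0.09 (adjusted p = 0.444). Without 1 library the list gave 1 to 5 lower.

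Homing and memory genes were lower or did not pass. Of 30 chemokine receptors and homing genes, 6 were lower and none higher (median -0.37). Itgb7, the integrin chain for gut homing, was at 863, 852 and 879 CPM against 1481 and 1313 (-0.69 ± 0.09 SE, edgeR adjusted p = 0.00509). Itgb1, the beta chain of the VLA integrins, was at 144, 132 and 126 CPM against 243 and 243.5 (-0.86 ± 0.17, adjusted p = 0.0308). For Itgb1 the A8B1-OVA libraries lay near the saline range of 137 to 176.5 CPM and the higher-dose libraries above it. Of 23 central and effector memory genes, 3 were lower (Itgb1, Vim and Emp3) and none higher, with a median of -0.55. Vim, which encodes vimentin, was at 93.1, 94.7 and 70.6 CPM against 142 and 148 (-0.75 ± 0.16, adjusted p = 0.0469). The homing list gave 0 to 2 lower and the memory list 0 or 1 when 1 library was left out.

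The other genes among the 12 lowest were Slc16a5, a monocarboxylate transporter gene (-1.16 ± 0.14 SE), Pdlim4, a cytoskeletal adaptor gene (-1.15 ± 0.15), L1cam, an adhesion molecule gene (-1.05 ± 0.21), Flt3l, which encodes the ligand of FLT3, Tent5a, a poly(A) polymerase gene (-0.91 ± 0.15), and Ass1, which encodes argininosuccinate synthase (-0.86 ± 0.16). Slc16a5 was at 47.9, 52.6 and 68.1 CPM against 133 and 119. Flt3l and Ass1 share 43.6% and 61.52% of their words with a predicted gene and are uncertain. Prf1, the perforin gene, was the 1 cytotoxic gene called among 18 tested, lower at 20.1, 21 and 21 CPM against 40.2 and 29 (-0.74 ± 0.15, edgeR adjusted p = 0.0369). Gzmb, which encodes granzyme B, was at 0.829 to 2.41 CPM and overlapped. Sit1, an adaptor that damps receptor signalling, was at 129, 128 and 114 CPM against 227 and 185 (-0.74 ± 0.12, adjusted p = 0.0179), so of the 28 signalling brakes Spry1 was higher and Sit1 lower.

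Some replication genes were higher with A8B1-OVA, and no mitotic gene passed. Of 35 DNA replication genes 5 were called higher and none lower, with a median of 0.72, and 33 of the 35 fold changes were above 0. At an unadjusted p under 0.05 there were 21 higher and 0 lower, and DESeq2 called 13 higher and 0 lower. Mcm5, a subunit of the replicative helicase, was at 179.7, 217 and 150.5 CPM against 103 and 80.9 (0.99 ± 0.19 SE, edgeR adjusted p = 0.0303). Mcm3, another subunit, was at 165, 181 and 150.1 CPM against 104.5 and 91.5 (0.76 ± 0.13, adjusted p = 0.021). Rfc4, a clamp loader subunit, had 0.99 ± 0.19 and Mcm6 0.70 ± 0.12 (adjusted p = 0.0306 and 0.0223). Without 1 library the count was 0, except without A8B1-OVA replicate 3, where it was 10.

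For mitosis 0 of 37 genes were called at a median of 1.00 (5 higher at an unadjusted p under 0.05; DESeq2 called 3 higher). The A8B1-OVA libraries differed among themselves here. The summed level of the list was 530.1, 736.3 and 247.1 CPM with A8B1-OVA and 304.4 and 306.2 with higher-dose OVA, so that replicate 3 was below both higher-dose libraries. Mki67, the proliferation marker, was at 14.2, 21.6 and 4.69 CPM against 8.61 and 14.8 (0.20 ± 0.80 SE, edgeR adjusted p = 0.961). In bulk RNA a smaller share of dividing cells and less RNA per dividing cell cannot be told apart. Without A8B1-OVA replicate 2 the list median was 0.53, and without replicate 3 it was 1.40.

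Some genes of growth were also called higher. Of 27 genes in a list of ribosome biogenesis genes and Myc, 3 were higher (Ncl, Nop16 and Myc itself) and none lower (median 0.32; 0 to 2 higher without 1 library). In this list 26 of the 27 fold changes were above 0. At an unadjusted p under 0.05 there were 14 higher and 0 lower, and DESeq2 called 10 higher and 0 lower. Ncl, which encodes nucleolin, was at 636, 753 and 752 CPM against 373 and 443 (0.81 ± 0.12 SE, edgeR adjusted p = 0.0112), and Nop16, another nucleolar protein gene, at 68.9, 79.2 and 64.2 against 46 and 41.8 (0.69 ± 0.14, adjusted p = 0.038). A group of serine and one-carbon metabolism genes stood among the called genes and was picked out after the values were seen, so it has no test as a group. Shmt1, which moves one-carbon units from serine to folate, was at 44.9, 56.4 and 37.7 CPM against 19.8 and 9.08 (1.68 ± 0.30, adjusted p = 0.0214). Psat1, of serine synthesis, had 0.90 ± 0.19, Gcsh, of the glycine cleavage system, 0.94 ± 0.20, Mthfd1l, of mitochondrial folate metabolism, 0.61 ± 0.13, and Slc19a1, the reduced folate carrier, 0.89 ± 0.16, each with adjusted p between 0.0214 and 0.0432. Glycolysis (24 genes), oxidative phosphorylation (44), cholesterol synthesis (24), ribosomal proteins (51) and apoptosis regulators (27) had no called gene, and their medians ran from -0.02 to 0.23. Fold changes above 0 numbered 13, 42, 12, 49 and 17 in these lists, so nearly all oxidative phosphorylation and ribosomal protein genes had the same sign without a call. At an unadjusted p under 0.05 the 5 lists had 7, 7, 0, 3 and 4 genes higher and 1, 0, 2, 0 and 1 lower, and DESeq2 called 3, 2, 0, 0 and 3 higher and 1, 0, 1, 0 and 0 lower. Over all genes, both directions together, the unadjusted count was 1890 of 14757 and DESeq2 called 706 of 11604.

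Of 39 interferon-stimulated genes 1 was called, lower with A8B1-OVA, and 38 did not pass; 38 fold changes were below 0 and the median was -0.40. The called gene was Igtp, an immunity-related GTPase gene, at 279, 259 and 294 CPM against 397 and 404.5 (-0.53 ± 0.12 SE, edgeR adjusted p = 0.0458); 15.94% of its sequence is shared with Irgm2, so it is uncertain. Its call held in 4 of 14 alternative fits and in none of the 5 that left out 1 library. At an unadjusted p under 0.05, 21 members were lower, and DESeq2 called 8 lower and 0 higher. The summed level of the list was 4526, 3959 and 4726 CPM with A8B1-OVA and 5379 and 6161 with higher-dose OVA, without overlap. Among heat shock and handling genes 1 of 27 was called, Hspe1, a mitochondrial co-chaperonin gene with sequence shared with another gene (0.61 ± 0.12, adjusted p = 0.0335). The summed level of that list varied within both groups, at 19860, 11960 and 13760 CPM against 20180 and 12370.

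None of the B cell, myeloid, erythroid or platelet markers was called (0 of 17, 24, 14 and 5 tested; 0, 4, 0 and 1 lower at an unadjusted p under 0.05; DESeq2 called 0 in each). Summed myeloid markers were at 228.3, 250.5 and 146.2 CPM with A8B1-OVA and 318.6 and 305.8 with higher-dose OVA, and the list median was -0.64. Erythroid markers were at 471.9, 356.6 and 266.6 against 396.2 and 492.9. A8B1-OVA replicate 3 had the lowest sum of B cell, myeloid and erythroid markers of the 5 libraries. Of 8 CD8 markers 2 were lower: Runx3 and Cd8b1, the latter at 24.9, 30.7 and 24.9 CPM against 49.2 and 45.4 (-0.82 ± 0.14 SE, edgeR adjusted p = 0.0206). Of 15 NK cell markers Eomes was higher and Prf1 lower, and the others did not pass. The summed NK cell markers, Eomes included, were at 150.0, 194.8 and 135.7 CPM against 84.32 and 71.14. Without Eomes the other 14 summed to 38.88, 49.15 and 42.09 CPM against 71.39 and 57.89, so they lay lower with A8B1-OVA, and the list median was -0.40. The part of RNA from other cells in these differences was not tested.

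Set against saline, which shares its libraries between both comparisons and shares the treated libraries with the main one, the treatments gave very different counts. A8B1-OVA had 1074 called genes against saline (7.28%), of which 649 were higher (4.4%) and 425 lower (2.88%), and DESeq2 called 1892. The A8B1-OVA group had 3 libraries and the higher-dose group 2, so the counts compare only roughly. Higher-dose OVA had 4 (0.0271%), 3 higher (0.0203%) and 1 lower (0.00678%) by edgeR (870 at an unadjusted p under 0.05; DESeq2 called 90). For higher-dose OVA the 4 genes were Cxcr5, P2rx7 and Gm5157, which were higher, and Irf2bp2, which was lower. The 3 that were higher were also called higher with A8B1-OVA against saline. Without the libraries with raised markers of other cells 1 of the 4 calls was kept, and 2 were kept without saline replicate 1. P2rx7, the ATP-gated channel gene, was at 27.9, 33.8 and 20.4 CPM with A8B1-OVA, 38.9 and 34.9 with higher-dose OVA, and 12.2 to 13.8 in saline libraries (1.48 ± 0.20 SE for higher-dose OVA against saline, edgeR adjusted p = 0.0344). Gm5157 is uncertain, since 94.65% of its words occur in Gm6902. Irf2bp2, which encodes a repressor partner of IRF2, was at 234, 228 and 244.5 CPM with A8B1-OVA, 128 and 101 with higher-dose OVA, and 210.0 to 273 in saline libraries. It was therefore higher with A8B1-OVA than with higher-dose OVA (1.04 ± 0.13, adjusted p = 0.00509) while its A8B1-OVA level lay within the saline range. The 4 calls were all lost in the fits without saline replicate 2 or 3 or without higher-dose replicate 2 or 3.

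**Figure D4:**
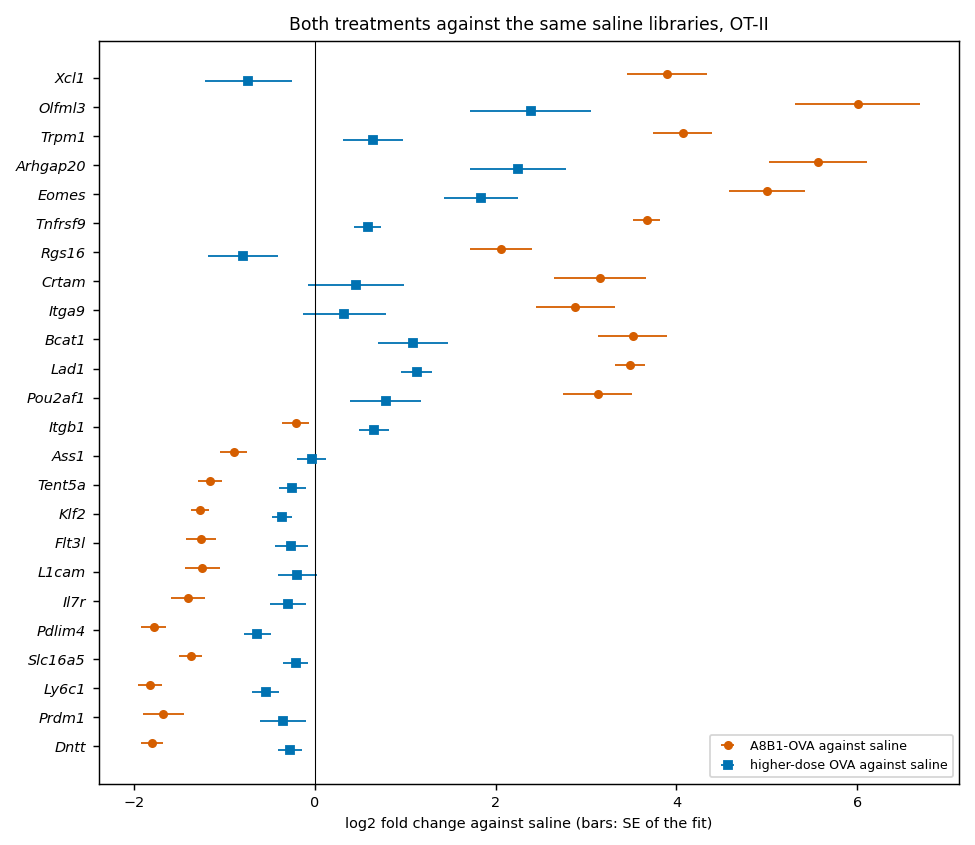
Log2 fold change against saline (horizontal axis, bars are the SE of the fit) for the 12 highest and 12 lowest genes named by size (vertical axis); orange circles are A8B1-OVA and blue squares higher-dose OVA, each set against the same 3 saline libraries. Eomes stands at 5.00 with A8B1-OVA and 1.84 with higher-dose OVA, Xcl1 at 3.90 and -0.73, and Itgb1 at -0.21 and 0.65.

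After higher-dose OVA some genes stood between the other groups without passing against saline. Eomes was at 5.00 on the log2 scale against saline with A8B1-OVA and 1.84 ± 0.41 SE with higher-dose OVA (edgeR adjusted p = 5.71e-05 and 0.298). Lad1 had 3.49 and 1.13 ± 0.17 (adjusted p = 4.63e-07 and 0.0631). Izumo1r had 2.42 and 1.20 ± 0.23 (adjusted p = 0.000124 and 0.202). In these 3 genes both higher-dose libraries lay above all 3 saline libraries. The same held for Tnfrsf9, with 3.67 and 0.59 ± 0.15, and for Dntt both lay below saline, with -1.80 and -0.28 ± 0.13 (adjusted p = 0.392 and 0.854 for higher-dose OVA). Egr3 had 1.90 and 0.19 ± 0.28 and Xcl1 3.90 and -0.73 ± 0.48 (adjusted p = 0.987 and 0.939 for higher-dose OVA). Itgb1 and Tbx21 were highest with higher-dose OVA, at 0.65 ± 0.17 and 0.90 ± 0.43 against saline (adjusted p = 0.392 and 0.854), and A8B1-OVA had -0.21 and -0.64 (adjusted p = 0.486 and 0.396).

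The same contrast in OT-I cells, which were in the same treatment groups, called 721 of 15235 genes in a fit of all 23 libraries (4.73%), 493 higher (3.24%) and 228 lower (1.5%). That count was 93 without OT-I A8B1-OVA replicate 2, 1776 without replicate 3 and between 248 and 378 without any other 1 library of the 2 OT-I groups, and the shares below rest on it. Of the 198 genes called in OT-II, 109 were called in the same direction in OT-I, which is 55.1% of the OT-II calls and 15.1% of the OT-I calls, and 1 in the opposite direction. Among the 24 genes named by size, 21 had the same sign in OT-I and 16 were called there in the same direction. Tnfrsf9 had 2.50 ± 0.21 SE and Xcl1 3.54 ± 0.35 in OT-I. The difference between the cell types did not pass for either (0.57 ± 0.30 and 1.09 ± 0.55, OT-II minus OT-I; edgeR adjusted p = 0.983 for both).

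Eomes was the 1 gene whose difference between the treatments itself differed between cell types (0.00656% of 15235 tested; 785 at an unadjusted p under 0.05; DESeq2 called 33). In OT-I it was at 119, 118.5 and 114 CPM with A8B1-OVA and at 85.3, 165 and 126 with higher-dose OVA, in overlapping ranges (-0.10 ± 0.31 SE). In the OT-II libraries it was at 111, 146 and 93.6 CPM with A8B1-OVA, a range that overlaps that of OT-I, and at 12.9 and 13.2 with higher-dose OVA. The OT-I levels are scaled by the fit of all 23 libraries and the OT-II levels by the OT-II fit, so the ranges compare only roughly. The OT-II minus OT-I difference was 3.24 ± 0.48 (adjusted p = 0.0258). Same-numbered OT-I and OT-II libraries may come from the same mice, which the labels do not state. With the number as a block within each cell type the difference was 3.19 and did not pass (adjusted p = 0.126). With a block shared by the OT-I and OT-II libraries of 1 treatment and number, a fit added after seeing the data, it was 3.41 ± 0.41 (adjusted p = 0.0159) and 9 genes were called. It ran from 2.98 to 3.46 when single libraries of the 4 groups were left out. The call was lost without OT-I A8B1-OVA replicate 1 or 2 (adjusted p = 0.107 and 0.114), OT-I higher-dose replicate 2 (0.111), OT-II A8B1-OVA replicate 1 or 2 (0.0656 and 0.059) or OT-II higher-dose replicate 2 or 3 (0.355 and 0.357). Olfml3, with -0.44 ± 0.52 in OT-I, Crtam, with 0.88 ± 0.35, and Slamf7, a SLAM family receptor gene named after its value was seen, with -0.37 ± 0.35, also had other values in OT-I, but their differences of 4.04 ± 0.81, 1.80 ± 0.55 and 2.59 ± 0.55 did not pass (adjusted p = 0.108, 0.606 and 0.148).

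**Figure D5:**
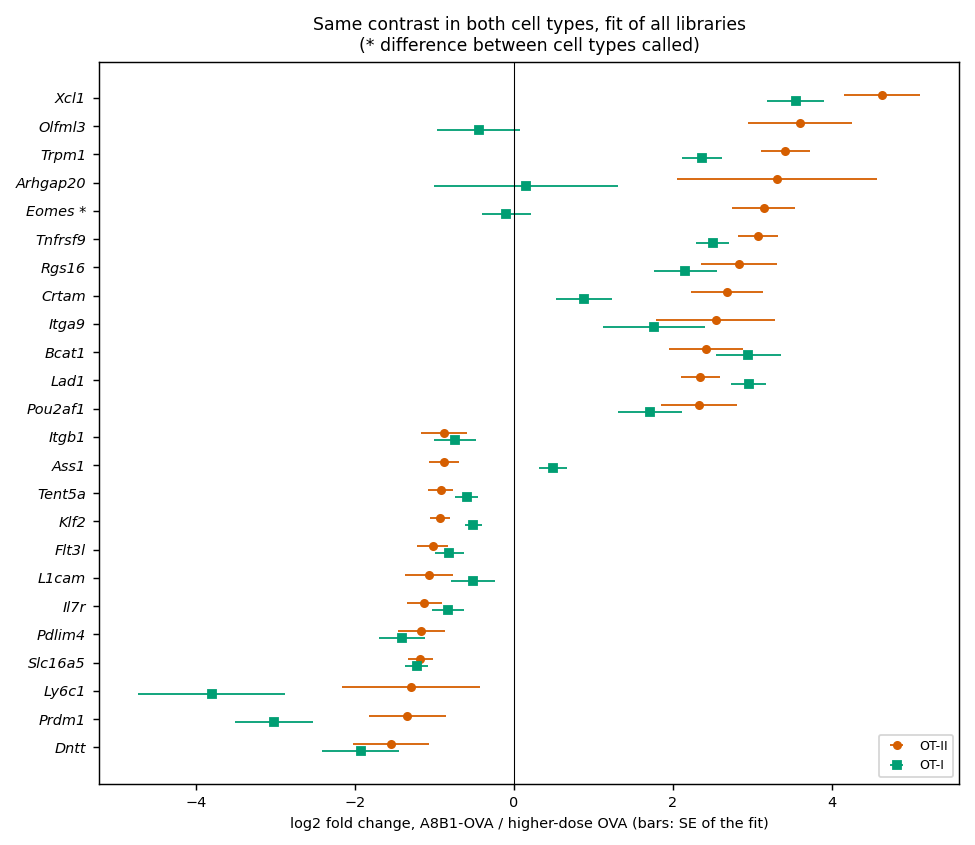
Log2 fold change of A8B1-OVA over higher-dose OVA (horizontal axis, bars are the SE of the fit of all 23 libraries) in OT-II cells (orange circles) and OT-I cells (green squares) for the 24 genes named by size (vertical axis). The asterisk marks Eomes, the gene whose difference between cell types was called, at 3.14 in OT-II and -0.10 in OT-I in this fit.

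Several further called genes were named after their values were seen, partly for their small spread, so their errors and p-values are descriptions. Ephx1, microsomal epoxide hydrolase, was at 379, 404 and 356.5 CPM with A8B1-OVA and 184 and 185 with higher-dose OVA (1.04 ± 0.12 SE, edgeR adjusted p = 0.00247). Myb, a factor of progenitor and memory T cells, was at 231, 202 and 206 CPM against 116 and 98.5 (0.99 ± 0.18, adjusted p = 0.0223), with saline at 40 to 61.6. Sox4, a factor of TGF-beta responses, was at 344, 355 and 236 CPM against 126 and 119.9 (1.34 ± 0.16, adjusted p = 0.00364), and its higher-dose level lay within the saline range of 109 to 126.3. Acot7, an acyl-CoA thioesterase gene, was at 72.9, 98.8 and 71.3 CPM against 27.9 and 37.3 (1.31 ± 0.17, adjusted p = 0.00509). Colq, which encodes a collagen-like anchor of acetylcholinesterase, was at 22.6, 19.7 and 18.5 CPM against 4.43 and 5.16 (2.08 ± 0.29, adjusted p = 0.00852).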

How the data were processed

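RNA-seq libraries of sorted OT-II cells were compared between A8B1-OVA (3 libraries) and higher-dose OVA (2 libraries), grouped by treatment label. The authors deposited 1 table of estimated counts per gene (21900 genes, 23 libraries). Per the submitters' processing notes bcl2fastq, kallisto 0.46.1 and build GRCm38 were used; the annotation, the strand setting and how transcripts were summed to genes were not given in the sources used here. No per-sample column was left unused (0). Counts were rounded to whole numbers for DESeq2 only, and edgeR used them as deposited. Of the identifiers, 21806 are in GENCODE M21. The table has 27 symbols turned into dates, and 30 symbols occur more than once.

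The 11 OT-II libraries were fitted together in R 4.3.3 with edgeR 4.0.16: filterByExpr (minimum count 10, minimum total 15), TMM scaling and a quasi-likelihood test with 7 residual degrees of freedom. Benjamini-Hochberg adjustment ran over all 14757 genes tested and a gene was called under 0.05. OT-I against OT-II was tested as an interaction in a fit of all 23 libraries. CPM differ in gene length and are not compared between genes. Library totals of the 5 libraries were 52323657 to 64846003 counts; intervals and floors (3 counts) cover counting error only. The edgeR and DESeq2 fits of the OT-II libraries were tested on simulated data in which all genes had the same spread. Changes were placed only in genes with high counts. That run therefore does not speak to low genes or to genes that differ in spread.

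Named genes were the 12 called genes with the largest fold change on each side (mean of at least 10 CPM in the higher group, no overlap between groups, no predicted genes or receptor segments), up to 4 called genes per list, a panel of 48 genes and up to 6 per side of the interaction. A gene sharing 10% or more of its 31-base words with another gene is called uncertain. The members and lists were chosen with earlier results of these data known. Alternatives were DESeq2 1.42.0, RLE scaling (edgeR's version of the DESeq2 size factors), no scaling factors, no low-count filter, a minimum count of 50, a replicate block, a block shared by OT-I and OT-II (added after seeing the data), only the 2 groups compared, all 23 libraries, leaving out single libraries, and leaving out the libraries with raised markers of other cells.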

Additional observations from a re-analysis of the deposited data

Results flagged for a closer look

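The difference of Eomes between A8B1-OVA and higher-dose OVA was not the same in the 2 cell types: by a test of the difference itself, OT-II minus OT-I was 3.24 ± 0.48 SE on the log2 scale (edgeR adjusted p = 0.0258 over 15235 genes). The 3 OT-II libraries with A8B1-OVA all lay above the 2 with higher-dose OVA, whereas in OT-I the ranges overlapped. With the replicate number as a block within each cell type it was 3.19 and did not pass (adjusted p = 0.126). The adjusted p was above the threshold in 7 of the fits that left out 1 library.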

How the results depend on the processing

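The count of genes called between A8B1-OVA and higher-dose OVA in OT-II, 198 as reported, was 706 with DESeq2, 122 without the libraries with raised markers of other cells (OT-II saline replicate 1 and molar-equivalent replicate 3; in the fit of all libraries also OT-I saline 1, molar-equivalent 2 and higher-dose 1) and 90 with only the 2 groups compared, and 6 to 210 with 1 library left out. The 121 called higher became 416, 85, 70 and 5 to 146 in these fits, and the 77 called lower became 290, 37, 20 and 1 to 64. With RLE scaling, no scaling factors, no filter, a minimum count of 50 or all 23 libraries it stayed between 138 and 242. The share of higher calls was 61.1%, and 68.2% without scaling factors, 69.7% without the raised-marker libraries and 77.8% with only the 2 groups compared. For A8B1-OVA against saline, 1074 became 1892 with DESeq2, 726 with only the 2 groups compared, 729 without the raised-marker libraries, and 578 to 1011. For higher-dose OVA against saline, 4 became 90 with DESeq2, 7 with no filter, 13 with all 23 libraries, 0 with only the 2 groups compared, and 0 to 4. The interaction count, 1, became 33 with DESeq2, 2 without the raised-marker libraries, 9 with the block shared by OT-I and OT-II libraries of the same treatment and number (added after seeing the data), and 0 to 3. The OT-I count, 721, became 1452 with DESeq2, 196 without the raised-marker libraries, and 93 to 1776. The cause of these differences was not tested.

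With the replicate number as a block the counts were 44 (29 higher and 15 lower) for the main comparison, 872 and 0 against saline, 0 for the interaction and 587 in OT-I; with this block Il21 was -0.134, Tcf7 -0.006 and Mki67 -0.075. The 2 number pairs had correlations of 0.006 and 0.055 in their deviations from the group means. With 2 higher-dose libraries these deviations mirror each other, so the correlations cannot tell whether the numbers pair libraries. The labels state no pairing, and the block was used as an alternative only. Between OT-I and OT-II libraries of the same treatment and number, 6 of 11 pairs had a correlation over 0.1 (-0.026 to 0.281). Pairs of the same treatment and other numbers ran from -0.244 to 0.127. Deviations within a group cancel, so these values depend on each other. The interaction test as reported treats OT-I and OT-II libraries as independent.

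Tbx21, not called as reported, was called lower with DESeq2 and with only the 2 groups compared. The sign turned for 9 named values, none of them called. Cblb was 0.002 without scaling factors and Tcf7 -0.003 with all 23 libraries. With single libraries of the 2 groups left out, the log2 fold change ran from -0.153 to 0.141 for Cblb, -0.548 to 0.798 for Il21, -0.015 to 0.051 for Tcf7, -0.311 to 0.648 for Mki67, -0.09 to 0.334 for Il2ra, -0.761 to 0.781 for Gzmb, -1.295 to 0.328 for Havcr2 and -0.096 to 0.326 for Cxcr6. For Eomes in OT-I it ran from -0.309 to 0.167. With 2 higher-dose libraries, differences of low genes (Lag3, Havcr2, Il21, Gzmb) were not resolved at this depth.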
